A study of Mus musculus with 4 samples.

Results

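Deletion of Cyp3a was examined in mouse liver across both Cyp27a1 backgrounds of a 4-genotype series. The Cyp3a-deleted side consisted of the Cyp3a KO and the double KO lacking Cyp3a and Cyp27a1 (DKO), and the Cyp3a-intact side of the WT and the Cyp27a1 KO. All 4 libraries of the series were used, 2 a side. Of the 33639 genes in the count table, the 11743 with a mean of at least 1 CPM (counts per 1000000 counts of the library) over the 4 libraries were compared. Each library came from the liver of 1 male mouse, and both deletions are described as global. The labels call the deleted gene Cyp3a4, which is a human symbol. The animals received no treatment, were housed 4 to a cage on a light/dark cycle of 12 h, and ate standard chow. Their strain, age and hour of tissue collection are not in the labels used here.

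Cyp3a enzymes are the main haem-containing oxidases of drug and steroid metabolism in liver, and they also hydroxylate cholesterol and bile acid precursors. Cyp27a1 is the mitochondrial sterol 27-hydroxylase, which oxidises the sterol side chain in bile acid synthesis, and in its absence side-chain intermediates are known to be handled by Cyp3a. Hepatic cholesterol synthesis is set by SREBP2, a membrane-bound transcription factor released when sterols in the endoplasmic reticulum are low. Foreign compounds and many steroids are sensed by the nuclear receptors PXR and CAR, which induce oxidases, conjugating enzymes and transporters.

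The 2 libraries of a side differ in Cyp27a1 genotype and are not replicates. With 2 against 2 the smallest 2-sided p of an exact permutation test is 0.333, so no single-gene permutation test was run, and a difference between genotypes cannot be told apart from a difference between individual mice. Each gene was instead described by the difference of mean log2 (CPM + 0.5), Cyp3a-deleted minus Cyp3a-intact, and by whether both libraries of one side lay beyond both of the other. A gene is called here when the sides do not overlap and the difference is at least 1, that is at least 2-fold. The differences within a background, Cyp3a KO minus WT and DKO minus Cyp27a1 KO, share no library and are given beside the mean difference. The libraries held between 49745860 and 50378101 estimated counts. At that depth the exact 95% Poisson interval of 50 counts, about 0.997 CPM, ran from 25.8% below to 31.8% above the value, and that of 5000 counts from 2.75% below to 2.81% above. These intervals cover counting error only. Genes at least 2-fold above or below the median of the other libraries numbered 417 and 300 in the DKO, 132 and 156 in the Cyp3a KO, 205 and 319 in WT, and 148 and 86 in the Cyp27a1 KO.

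The Cyp3a genes themselves, apart from Cyp3a41a in the DKO, were nearly silent in the Cyp3a-deleted livers. Cyp3a11, the family member with the most counts, had 0.160 CPM (Cyp3a KO) and 4.76 CPM (DKO), against 8742 CPM (WT) and 23706 CPM (Cyp27a1 KO). The Cyp3a KO thus held 0.00183% of the WT level and the DKO 0.0201% of the Cyp27a1 KO level. Cyp3a25 had no count in Cyp3a KO liver and 0.351 CPM in the DKO, against 677 CPM (WT) and 1013 CPM (Cyp27a1 KO). Taking 3 counts in the library as the limit that a count of 0 allows, Cyp3a25 was at least 11306-fold lower in the Cyp3a KO than in WT. Cyp3a13, which lies apart from the other genes on chromosome 5, kept 2.44 CPM in Cyp3a KO and 2.64 CPM in DKO liver, against 106 CPM in WT and 216 CPM in Cyp27a1 KO liver, or 2.30% and 1.22% of the level in the matching Cyp3a-intact liver. Cyp3a16 and Cyp3a41b had no count in either Cyp3a-deleted library. Of the 8 measured Cyp3a genes 7 were called lower. The exception was Cyp3a41a, with 0.0999 CPM in Cyp3a KO liver and 5.39 CPM in DKO liver, against 2.12 CPM for WT and 4.46 CPM for the Cyp27a1 KO. Reads of Cyp3a41a and its near-identical copy Cyp3a41b can be assigned to either, so the value of each is uncertain. As Cyp3a41b had no count in the DKO, the 5.39 CPM was the level of the pair there. In the Cyp27a1 KO Cyp3a41b had 4.78 CPM beside the 4.46 CPM of Cyp3a41a. Signal of the pair was thus retained in the DKO. Cyp27a1 was at 727 CPM (Cyp3a KO) and 65.3 CPM (DKO), against 746 CPM (WT) and 57.6 CPM (Cyp27a1 KO), so it followed the Cyp27a1 labels and its mean differed by only 0.07 (log2) between the sides.

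Across the transcriptome, 2059 genes (17.5%) lay higher without overlap in the Cyp3a-deleted livers and 2189 (18.6%) lay lower. There are 6 ways to split the libraries 2 against 2. If their order were random, 1 gene in 6 would lie higher without overlap and 1 in 6 lower. The shares found lie near that level and are not read as an effect of the deletion. Adding the 2-fold requirement left 142 genes called higher (1.21% of those measured) and 120 called lower (1.02%). With library totals in place of TMM-scaled totals the split was 168 higher and 90 lower, and with TPM as deposited, where the median gene stood 0.13 (log2) above 0, it was 192 higher and 79 lower. The counts rose to 384 higher and 281 lower without the Cyp27a1 KO library, and to 453 higher and 344 lower without the Cyp3a KO library. The calls nearest the 2-fold limit were Tiam2 at 1.002 and Pcp4l1 at -1.001, while Sept5 at 0.998 and Ogn at -0.999 fell just outside it. In both backgrounds, 73 of the genes called higher and 57 of those called lower differed at least 2-fold. The median of the genes called higher was 1.45 (log2) for Cyp3a KO minus WT and 1.29 for DKO minus Cyp27a1 KO, and that of the genes called lower was -1.32 and -1.53. An additive edgeR quasi-likelihood fit had terms for Cyp27a1 and Cyp3a and 1 residual degree of freedom. That residual is the departure from additivity of the deletions. With 1 library per genotype, its adjusted p values do not measure the spread between mice of a genotype. The fit passed 5 genes (0.0426%) at a Benjamini-Hochberg adjusted p under 0.05. These were Cyp3a59 (log2 fold change -12.51, adjusted p = 0.00440 in edgeR), AW822252 (8.42, adjusted p = 0.00440), Cyp3a13 (-5.90, adjusted p = 0.0233), Cyp3a44 (-8.38, adjusted p = 0.0453) and Plin4 (-2.29, adjusted p = 0.0453).

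**Figure D1:**
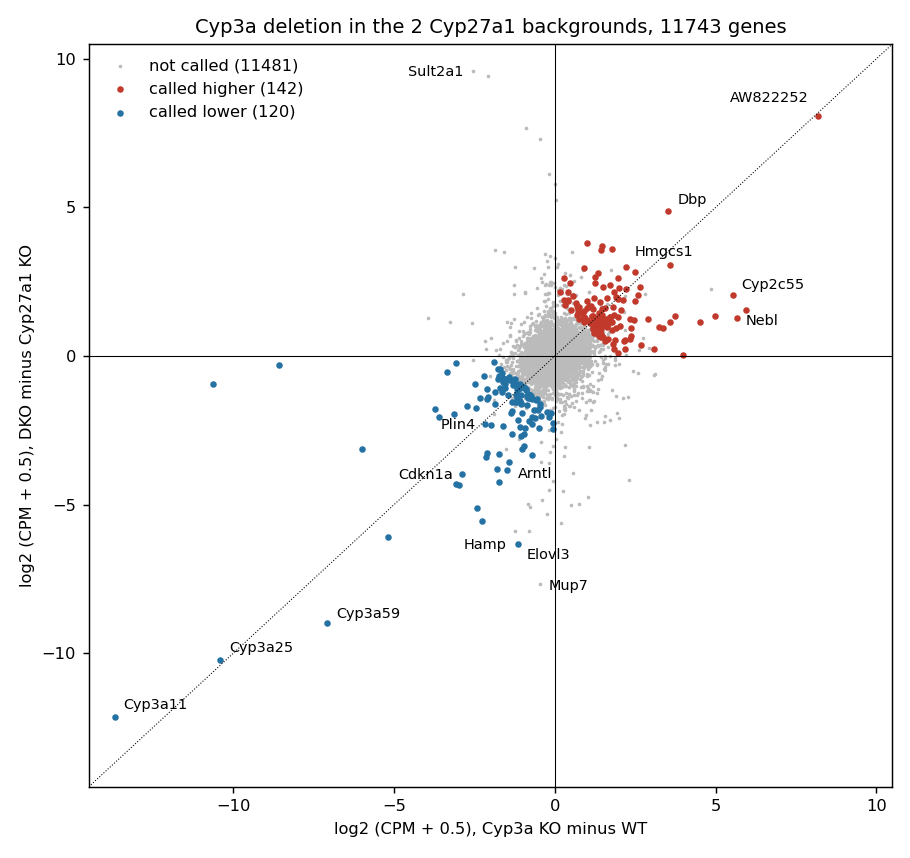
Difference of log2 (CPM + 0.5) for each of the 11743 measured genes, with Cyp3a KO minus WT on the x axis and DKO minus Cyp27a1 KO on the y axis. Red points are the 142 genes called higher and blue points the 120 called lower in the Cyp3a-deleted livers, grey points were not called, and the dotted line marks equal differences. Cyp3a11, Cyp3a25 and Cyp3a59 lie at the lower left, Dbp and the pseudogene AW822252 at the upper right, and Sult2a1 and Mup7 are displaced mainly along the y axis.

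Cholesterol synthesis formed the widest block of called genes among the lists, which were chosen with earlier results of these data known. Of the 30 measured members of the 3 cholesterol lists 18 were called higher and none lower, and 25 lay higher without overlap. The shares over all measured genes were 1.21% called higher and 17.5% higher without overlap. The median difference of the lists was 1.25 (log2), against -0.00021 over all measured genes. The order of the libraries was alike along the pathway. In all 20 measured synthesis enzymes the DKO was the highest library, in 19 WT was the lowest, and in 16 the order from low to high was WT, Cyp27a1 KO, Cyp3a KO and DKO. The arm from acetyl-CoA to squalene epoxide had 9 of 10 members called, with a median of 1.80 for Cyp3a KO minus WT and 2.10 for DKO minus Cyp27a1 KO. The arm from lanosterol to cholesterol had 6 of 10, with medians of 1.16 and 1.30. Leaving out 1 library, the earlier arm had 6 called without the DKO and 7 without WT, and the later arm 4 without either. Without the Cyp27a1 KO they had 10 and 8 called, and without the Cyp3a KO 10 and 9.

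Hmgcs1, which condenses acetyl-CoA units into HMG-CoA, had 551 CPM in Cyp3a KO and 1589 CPM in DKO liver, against 119 CPM in WT and 198 CPM in Cyp27a1 KO liver. The sides were far apart, 4.61-fold within the Cyp27a1-intact background and 8.01-fold within the Cyp27a1-deleted one. Fdft1, or squalene synthase, was even between backgrounds, with 179 CPM (Cyp3a KO) and 476 CPM (DKO), against 38.1 CPM (WT) and 100 CPM (Cyp27a1 KO), which gives 2.22 and 2.24. Mvk, mevalonate kinase, gave 1.95 and 1.94, Cyp51, the lanosterol demethylase, 1.95 and 1.92, and Msmo1, the sterol C4-methyl oxidase, 1.90 and 1.98. Idi1, which isomerises isopentenyl diphosphate, differed by 2.48 on the mean, Mvd, which forms it, by 2.29, Lss, which closes the ring to lanosterol, by 2.05, and Sqle, squalene epoxidase, by 1.79. Fdps, which makes farnesyl diphosphate, was the overlapping member, with 431 CPM in Cyp3a KO and 951 CPM in DKO liver, against 138 CPM in WT and 474 CPM in Cyp27a1 KO liver. Pmvk, Acat2 and Dhcr7 were called on gaps of 0.01, 0.10 and 0.05 (log2) between the nearest libraries, and their calls did not hold without the WT or without the DKO library.

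The genes that control the pathway were less uniform than its enzymes. Insig1, which retains SREBP2 in the endoplasmic reticulum and is itself an SREBP2 target, had 331 CPM in Cyp3a KO liver and 377 CPM in DKO liver, against 176 CPM for WT and 156 CPM for the Cyp27a1 KO. Its call did not hold without the DKO library. Insig2, the isoform that SREBP2 does not induce, lay the other way, with 436 CPM (Cyp3a KO) and 345 CPM (DKO), against 789 CPM (WT) and 470 CPM (Cyp27a1 KO). Srebf2, which encodes SREBP2, differed by 0.45. Abcg5 and Abcg8, the paired exporters of sterol into bile, were called at 1.13 and 1.03. Abcg5 had 84.4 CPM (Cyp3a KO) and 194 CPM (DKO), against 63.7 CPM (WT) and 53.2 CPM (Cyp27a1 KO), and Abcg8 had 128 CPM (Cyp3a KO) and 294 CPM (DKO), against 102 CPM (WT) and 88.6 CPM (Cyp27a1 KO). The annotated ends of the pair overlap, and reads of the overlap cannot be told apart. Neither transporter was called without the DKO or without the Cyp27a1 KO library. The other 6 genes of the LXR list, which holds the targets of the oxysterol receptor, were not called, and its median was 0.35.

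**Figure D2:**
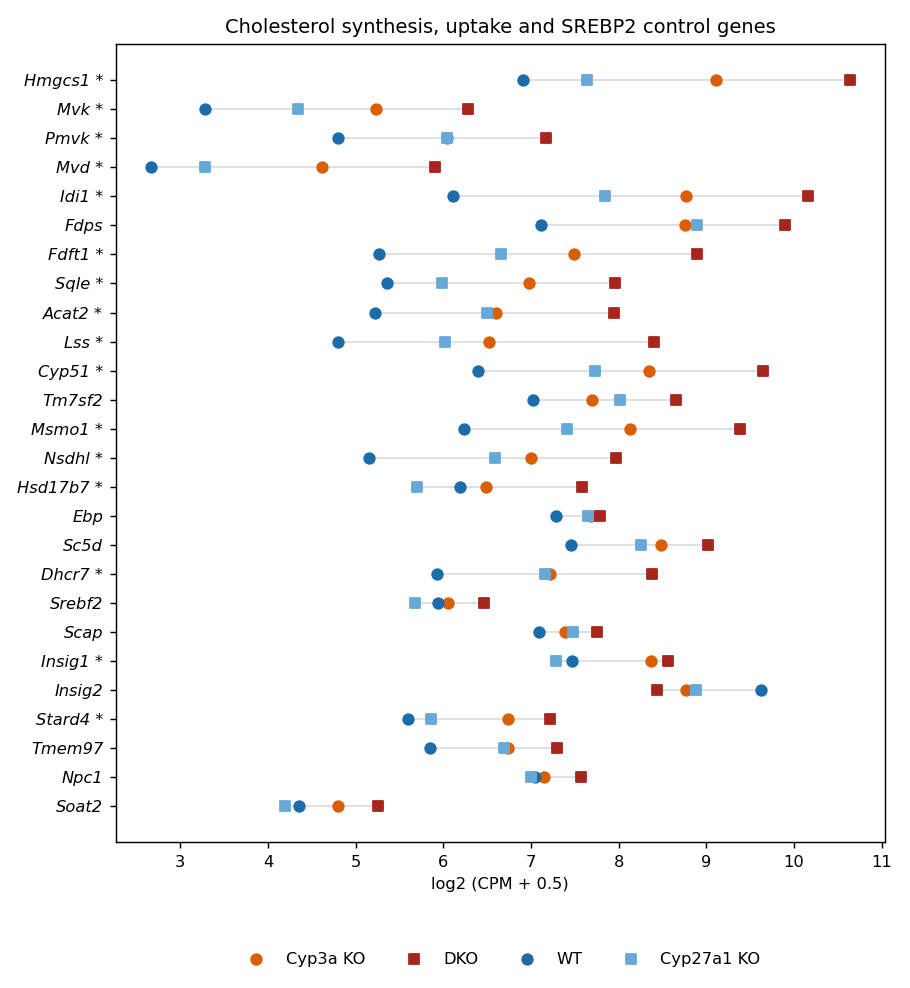
Level of genes of the cholesterol lists in the 4 libraries, as log2 (CPM + 0.5), with orange for the Cyp3a KO, dark red for the DKO, dark blue for WT and light blue for the Cyp27a1 KO; an asterisk marks a called gene. Some list members are not plotted, the DKO is rightmost in every enzyme shown, from Hmgcs1 to Dhcr7, and Insig2 runs in the opposite direction.

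The core letters of the sterol regulatory element, to which SREBP2 binds, were searched as CACCCCAC on both strands of the promoter window from 250 bases before to 50 after the start site (RefSeq, build GRCm38.p6). They were present in 2 of the 21 cholesterol genes with a window (9.52%) and in 3.30% of the 27025 genes with a window. The windows that hold them, of Hmgcs1 at chr13:119690101-119690400 (plus strand, letters at -136 from the start) and of Acat2, the cytosolic thiolase, at chr17:12960676-12960975 (minus strand, letters at -181), are shown with the match in capitals. A match of letters is a description and not a binding site.
Hmgcs1: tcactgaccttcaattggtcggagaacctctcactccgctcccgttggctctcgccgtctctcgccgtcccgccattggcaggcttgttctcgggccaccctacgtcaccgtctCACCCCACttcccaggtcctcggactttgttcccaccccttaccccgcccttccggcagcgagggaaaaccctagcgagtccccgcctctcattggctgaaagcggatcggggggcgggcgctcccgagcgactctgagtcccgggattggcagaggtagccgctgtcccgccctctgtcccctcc
Acat2: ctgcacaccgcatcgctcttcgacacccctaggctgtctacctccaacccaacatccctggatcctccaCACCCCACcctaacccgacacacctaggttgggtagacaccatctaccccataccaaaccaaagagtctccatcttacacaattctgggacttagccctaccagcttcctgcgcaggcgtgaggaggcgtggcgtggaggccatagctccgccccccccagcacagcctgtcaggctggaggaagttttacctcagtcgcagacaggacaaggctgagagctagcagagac

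Of 28 listed PXR and CAR targets outside Cyp3a, 9 were called higher and none lower, 15 lay higher without overlap, 13 overlapped, and the median was 1.21 (log2). The shares over all measured genes were 1.21% called higher and 17.5% higher without overlap. The Cyp2c family added 2 further called genes, giving 5 of its 13 measured members. The receptors Nr1i2 (PXR), with 92.8 CPM in Cyp3a KO and 103 CPM in DKO liver against 93.0 CPM (WT) and 85.1 CPM (Cyp27a1 KO), and Nr1i3 (CAR), with a difference of 0.20, were not called. Without the WT library 5 of the 28 targets were called and the median was 0.50, and without the DKO library 7 were called and the median was 0.59. Without the Cyp27a1 KO library 21 were called (median 2.07), with 8 of the Cyp2c family, and without the Cyp3a KO library 22 (median 1.85).

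Cyp2c55, an oxidase of fatty acids and steroids, had 455 CPM in Cyp3a KO liver and 1016 CPM in DKO liver, against 9.37 CPM for WT and 243 CPM for the Cyp27a1 KO. Both Cyp3a-deleted livers were above both others, and WT was far below the rest, so the within-background folds were 48.5 and 4.18. Cyp2b10, the classical CAR target, had 353 CPM (Cyp3a KO) and 995 CPM (DKO), against 99.3 CPM (WT) and 223 CPM (Cyp27a1 KO), or 3.56-fold and 4.47-fold. Cyp2c29 had 4649 CPM in Cyp3a KO and 8631 CPM in DKO liver, against 1129 CPM in WT and 2965 CPM in Cyp27a1 KO liver. The carboxylesterase Ces2a differed by 1.78 (log2), though it was not called without the WT library. Akr1b7, an aldo-keto reductase that detoxifies lipid aldehydes, had 57.2 CPM in the DKO and 5.19 CPM in the Cyp3a KO, against 4.26 CPM in the Cyp27a1 KO and 1.16 CPM in WT, so the nearest libraries lay 0.26 apart. Several conjugating enzymes of the same list differed at least 2-fold on the mean and still overlapped. Gstm3, a glutathione transferase, had 1504 CPM in Cyp3a KO liver and 7182 CPM in DKO liver, against 51.3 CPM for WT and 1512 CPM for the Cyp27a1 KO, so the single deletions were at the same level. Gsta1, Gstm1 and Cyp2a5, the coumarin hydroxylase, were likewise higher in the Cyp27a1 KO than in the Cyp3a KO.

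Within the Cyp2c family, Cyp2c40 and Cyp2c69 had another order of libraries. Cyp2c40 had 161 CPM (Cyp3a KO) and 80.9 CPM (DKO), against 6.58 CPM (WT) and 36.5 CPM (Cyp27a1 KO). Cyp2c69 had 40.1 CPM in Cyp3a KO and 14.9 CPM in DKO liver, against 0.794 CPM in WT and 5.60 CPM in Cyp27a1 KO liver. In both genes the Cyp3a KO was the highest library. The Cyp2c, Gst, Sult2a and Mup genes are families of similar copies, so reads can be split between members and single-gene values are uncertain.

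**Figure D3:**
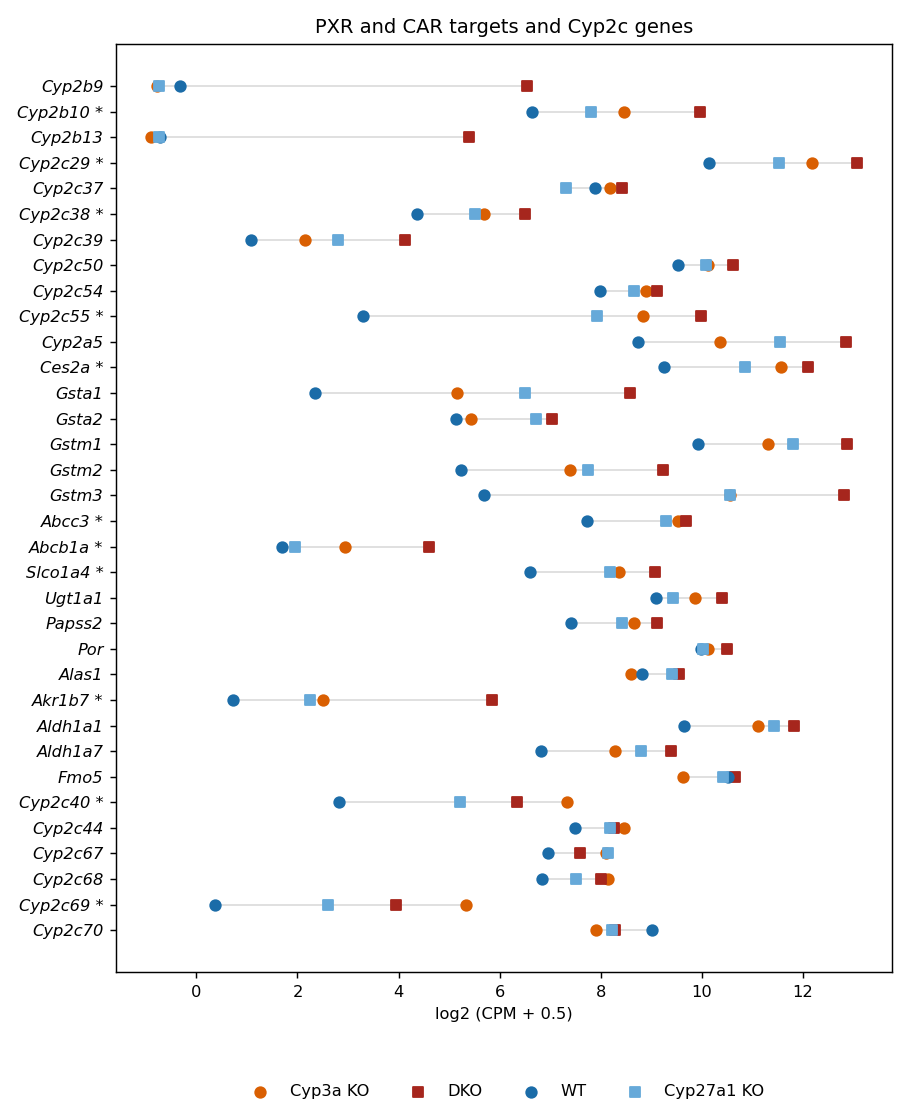
Level of each measured PXR and CAR target and Cyp2c gene in the 4 libraries, as log2 (CPM + 0.5), in the colours orange for the Cyp3a KO, dark red for the DKO, dark blue for WT and light blue for the Cyp27a1 KO; an asterisk marks a called gene. WT is the lowest library for most genes, and for Gsta1, Gstm1 and Cyp2a5 the Cyp27a1 KO lies above the Cyp3a KO.

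Bile acid synthesis, the question of the study, showed no called gene among its 18 measured members, and the median difference was -0.14 (log2). Few genes were called in the transcriptome as a whole, 1.21% higher and 1.02% lower. Only Slc27a2, an acyl-CoA synthetase that activates bile acid precursors, lay apart, with 1250 CPM in Cyp3a KO liver and 879 CPM in DKO liver, against 1752 CPM for WT and 1466 CPM for the Cyp27a1 KO. Cyp7a1, the rate-limiting cholesterol 7-alpha-hydroxylase, had 41.3 CPM (Cyp3a KO) and 173 CPM (DKO), against 22.4 CPM (WT) and 362 CPM (Cyp27a1 KO). The difference was 0.87 (log2) for Cyp3a KO minus WT and -1.06 for DKO minus Cyp27a1 KO, opposite in sign. Cyp39a1, the oxysterol 7-alpha-hydroxylase, also changed sign, with 13.4 CPM in Cyp3a KO and 52.7 CPM in DKO liver, against 99.7 CPM in WT and 12.0 CPM in Cyp27a1 KO liver. Cyp8b1, the 12-alpha-hydroxylase, had 663 CPM in Cyp3a KO liver and 421 CPM in DKO liver, against 467 CPM for WT and 742 CPM for the Cyp27a1 KO, and Hsd3b7 and Hsd17b4 differed in sign between the backgrounds in the same way. Cyp7b1, a male-biased enzyme of the acidic pathway, was low in the DKO alone. It had 15.4 CPM there and 209 CPM in the Cyp3a KO, against 231 CPM (WT) and 150 CPM (Cyp27a1 KO). Akr1d1, which reduces the steroid ring of bile acid precursors, was 1.06 higher on the mean but overlapped, with 283 CPM (Cyp3a KO) and 619 CPM (DKO), against 130 CPM (WT) and 310 CPM (Cyp27a1 KO). Without the Cyp27a1 KO library 2 genes of the list were called higher and 4 lower, without the Cyp3a KO library 1 and 1, without WT 2 and 1, and without the DKO none. The side-chain and conjugation genes Slc27a5, Amacr, Acox2 and Baat differed by 0.09 or less in size.

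Of 13 bile acid transporters 7 lay higher without overlap and 3 were called higher, none lower, with a median of 0.22 (log2). The differences ran from -2.26, in a gene whose sides overlapped, to 1.94. Over all measured genes 1.21% were called higher and 1.02% lower, and 17.5% lay higher and 18.6% lower without overlap. The FXR list, 7 genes measured, had 3 higher and 3 lower without overlap, with medians of 0.29 for Cyp3a KO minus WT and -0.16 for DKO minus Cyp27a1 KO. Abcb11, the bile salt export pump, had 673 CPM in Cyp3a KO and 667 CPM in DKO liver, against 413 CPM in WT and 475 CPM in Cyp27a1 KO liver, without overlap but under 2-fold. Nr0b2, or SHP, the repressor that FXR induces when bile acids are plentiful, had 46.3 CPM in Cyp3a KO liver and 24.3 CPM in DKO liver, against 16.3 CPM for WT and 7.87 CPM for the Cyp27a1 KO. Its folds were 2.84 and 3.08, so Cyp3a deletion was accompanied by a like ratio in both backgrounds while the Cyp27a1-deleted livers were lower within each side. Nr0b2 was the called gene of the FXR list, whose median on the mean of both sides was 0.07. Abcc3, a basolateral exporter, had 741 CPM (Cyp3a KO) and 827 CPM (DKO), against 211 CPM (WT) and 624 CPM (Cyp27a1 KO). Slco1a4, an uptake transporter, had 330 CPM in Cyp3a KO and 541 CPM in DKO liver, against 96.1 CPM in WT and 292 CPM in Cyp27a1 KO liver. Abcb1a, a P-glycoprotein, had 7.19 CPM in Cyp3a KO liver and 23.7 CPM in DKO liver, against 2.75 CPM for WT and 3.37 CPM for the Cyp27a1 KO. Without the WT library Abcc3 and Slco1a4 were not called, which left 1 transporter called higher, and 1 was then called lower. Without the DKO library Slco1a4 was not called. Leaving out the Cyp3a KO gave 3 transporters called higher and 1 lower. The receptor Nr1h4 (FXR) lay lower without overlap at a difference of -0.34 (log2), and so did Hnf4a, the hepatocyte factor that drives bile acid genes, at -0.46.

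Clock genes separated the sides in opposite directions by phase. The circadian clock runs on a loop in which Arntl (BMAL1) pairs with Clock or Npas2 to drive E-box genes such as Per, Cry and Nr1d1, while D-box genes follow Dbp and are repressed by Nfil3. All 5 genes of the Arntl phase lay lower without overlap and 4 were called, with a median of -2.11 (log2). Of the 13 repressors and outputs, 6 were called higher, 9 lay higher without overlap and 1, Hlf, lay lower without overlap at -0.24. Their median was 1.15. The shares over all measured genes were 1.21% called higher and 1.02% lower, with 17.5% higher and 18.6% lower without overlap. The hour at which each liver was collected is not given, so collection hour and genotype cannot be told apart for these genes. The same limit holds for any gene of the other lists, cholesterol synthesis included, whose level varies over the day. Which genes do so was not tested.

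Dbp, a D-box activator, had 28.9 CPM (Cyp3a KO) and 50.03 CPM (DKO), against 2.06 CPM (WT) and 1.22 CPM (Cyp27a1 KO). It was 14.0-fold and 40.8-fold higher within the backgrounds, the largest difference of the genes named by the selection outside the Cyp3a family. Arntl had 10.6 CPM in Cyp3a KO and 1.98 CPM in DKO liver, against 29.6 CPM in WT and 28.9 CPM in Cyp27a1 KO liver. Cry1, a repressor whose transcript peaks late in the cycle, had 6.83 CPM in Cyp3a KO liver and 7.48 CPM in DKO liver, against 39.6 CPM for WT and 26.6 CPM for the Cyp27a1 KO. For both genes the sides were widely separated, with gaps of -1.41 and -1.77 (log2) between the nearest libraries. Npas2 had 0.739 CPM (Cyp3a KO) and 0.185 CPM (DKO), against 4.87 CPM (WT) and 6.04 CPM (Cyp27a1 KO). Nfil3 had 39.2 CPM in Cyp3a KO and 6.996 CPM in DKO liver, against 64.8 CPM in WT and 75.9 CPM in Cyp27a1 KO liver, and was not called without the DKO library. Nr1d1 (REV-ERB alpha), the repressor of Arntl, was highest in the Cyp3a KO at 143 CPM and had 29.2 CPM in the DKO, against 13.6 CPM (WT) and 14.8 CPM (Cyp27a1 KO). Per3 had 5.15 CPM in Cyp3a KO liver and 22.6 CPM in DKO liver, against 2.53 CPM for WT and 2.45 CPM for the Cyp27a1 KO, and Per2 was also highest in the DKO, and neither Per gene was called without that library.

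**Figure D4:**
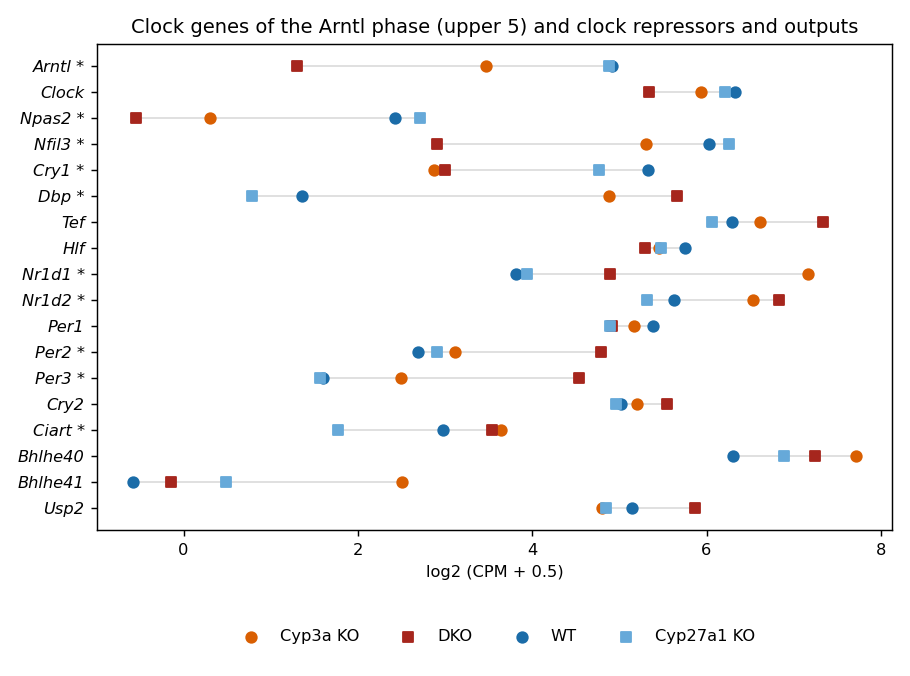
Level of each clock gene in the 4 libraries, as log2 (CPM + 0.5), with orange for the Cyp3a KO, dark red for the DKO, dark blue for WT and light blue for the Cyp27a1 KO; an asterisk marks a called gene. In the upper 5 genes both Cyp3a-deleted libraries lie left of both others, and for Dbp, Nr1d1, Nr1d2, Per2, Per3 and Ciart they lie to the right.

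Of the 16 clock genes with a RefSeq promoter window, 5 held the E-box letters CACGTG and 1 held the D-box letters TTATGTAA on either strand. Over all genes with a window the shares were 8.09% for the E-box and 1.11% for the D-box. The window of Cry1, with its E-box letters at -60, is chr10:85185005-85185304 (minus strand), and that of Per3, with a pair of D-boxes, is chr4:151044616-151044915 (minus strand, GRCm38.p6). Ciart, called higher at 1.22 (log2), also held E-box letters. The windows of Cry1 and Per3 are shown because their differences, -2.11 and 1.94, were the largest in size among called clock genes with a match. Matches are in capitals.
Cry1: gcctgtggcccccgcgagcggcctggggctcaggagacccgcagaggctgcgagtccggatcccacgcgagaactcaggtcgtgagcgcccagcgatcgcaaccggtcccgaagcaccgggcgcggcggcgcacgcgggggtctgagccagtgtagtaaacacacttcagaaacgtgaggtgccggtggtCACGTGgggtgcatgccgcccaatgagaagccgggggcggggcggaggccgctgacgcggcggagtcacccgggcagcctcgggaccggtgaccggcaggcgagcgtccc
Per3: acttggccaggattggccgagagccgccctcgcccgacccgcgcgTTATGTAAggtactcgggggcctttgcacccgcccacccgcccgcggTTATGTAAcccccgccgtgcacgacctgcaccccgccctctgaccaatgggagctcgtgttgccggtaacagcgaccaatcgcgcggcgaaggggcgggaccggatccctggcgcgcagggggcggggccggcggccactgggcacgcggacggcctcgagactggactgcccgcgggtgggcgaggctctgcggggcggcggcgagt

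Among the other genes called higher, Hsd17b6, a short-chain dehydrogenase of androgen and retinoid metabolism, was separated widely in both backgrounds. It had 411 CPM (Cyp3a KO) and 431 CPM (DKO), against 73.4 CPM (WT) and 60.3 CPM (Cyp27a1 KO). The libraries of a side were close to each other, and the nearest libraries of opposite sides lay 2.48 (log2) apart. Nebl, which encodes the actin-binding nebulette, had 46.3 CPM in Cyp3a KO and 17.8 CPM in DKO liver, against 0.429 CPM in WT and 7.01 CPM in Cyp27a1 KO liver. Abcd2, a peroxisomal transporter of very long fatty acyl-CoA, had 18.4 CPM in Cyp3a KO liver and 31.0 CPM in DKO liver, against 2.85 CPM for WT and 8.15 CPM for the Cyp27a1 KO. Sult2a7, a sulfotransferase of steroids and bile acids, had 68.5 CPM (Cyp3a KO) and 157 CPM (DKO), against 0.622 CPM (WT) and 53.7 CPM (Cyp27a1 KO), and was not called without the WT library. The largest positive difference of any measured gene, 8.12, belonged to AW822252, annotated as a transcribed pseudogene on the X chromosome and passed over by the naming rule, with 964 CPM in Cyp3a KO and 611 CPM in DKO liver, against 2.81 CPM in WT and 1.79 CPM in Cyp27a1 KO liver.

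The genes called lower included Cdkn1a, the cell-cycle inhibitor p21, with 25.8 CPM in Cyp3a KO liver and 7.55 CPM in DKO liver, against 194 CPM for WT and 126 CPM for the Cyp27a1 KO. The sides were far apart, with a gap of -2.26 (log2) between the nearest libraries. The other 9 measured p53 targets were not called, and the list median was 0.27. Gadd45g, a growth-arrest gene, had 16.0 CPM (Cyp3a KO) and 23.7 CPM (DKO), against 110 CPM (WT) and 76.8 CPM (Cyp27a1 KO).

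The passed-over symbols called lower included unprocessed pseudogenes on chromosome 1. Among them, Gm28661 had 0 CPM (Cyp3a KO) and 567 CPM (DKO), against 803 CPM (WT) and 1092 CPM (Cyp27a1 KO). For Gm28661 the Cyp3a KO alone stood far from the rest. Reads of a pseudogene and of a gene it resembles can be assigned to either, so the values of these pseudogenes are uncertain.

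Plin4 and Plin5, which encode lipid droplet coat proteins, were lower to a like degree in both backgrounds. Plin4 had 15.7 CPM in Cyp3a KO liver and 5.98 CPM in DKO liver, against 73.1 CPM for WT and 30.9 CPM for the Cyp27a1 KO, and its differences were -2.18 and -2.28. Plin5 had 97.5 CPM (Cyp3a KO) and 64.1 CPM (DKO), against 354 CPM (WT) and 200 CPM (Cyp27a1 KO), and its differences were -1.86 and -1.63. The pair lie side by side on chromosome 17. Among the 28 PPAR-alpha and fatty acid oxidation genes 10 lay lower without overlap, 2 were called lower and none higher, with a median of -0.36. The shares over all measured genes were 18.6% lower without overlap, 1.02% called lower and 1.21% called higher. The called members were Pdk4, the kinase that inhibits pyruvate dehydrogenase, with 14.4 CPM in Cyp3a KO and 11.6 CPM in DKO liver, against 53.6 CPM in WT and 27.6 CPM in Cyp27a1 KO liver, and Acot1, an acyl-CoA thioesterase, at -1.39. Acot1 was not called without the WT or without the DKO library. The number of the 28 called lower was 8 without the Cyp27a1 KO (median -0.54), 11 without the Cyp3a KO (-0.68), 1 without the DKO and 2 without WT. In lipogenesis (median 0.37) 2 of 17 genes were called higher, the acetyl-CoA synthetase Acss2 and the elongase Elovl6, on gaps of 0.06 and 0.03 (log2), and neither was called without the WT library. Lipogenesis then had none called higher and 1 lower, while 6 were called higher without the Cyp27a1 KO (median 0.71) and 7 without the Cyp3a KO (0.80), and without the DKO the median was 0.024. Ppp1r3c, which targets a phosphatase to glycogen, had 53.9 CPM in Cyp3a KO liver and 4.36 CPM in DKO liver, against 190 CPM for WT and 66.8 CPM for the Cyp27a1 KO.

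Some genes called lower owed most of their difference to the DKO. Elovl3, a male-biased fatty acid elongase, had 361 CPM (Cyp3a KO) and 4.78 CPM (DKO), against 802 CPM (WT) and 428 CPM (Cyp27a1 KO), and was not called without the DKO library. Pitx3, whose annotated end overlaps that of Elovl3 on the other strand, had 6.17 CPM in the Cyp3a KO and none in the DKO, against 21.8 CPM (WT) and 9.02 CPM (Cyp27a1 KO), and the reads of the overlap cannot be told apart. Scara5, a ferritin receptor, had 10.4 CPM in Cyp3a KO and 0.185 CPM in DKO liver, against 58.0 CPM in WT and 23.1 CPM in Cyp27a1 KO liver. Cyp17a1, the steroid 17-alpha-hydroxylase, was low in both, with 2.56 CPM in Cyp3a KO liver and 1.74 CPM in DKO liver, against 26.2 CPM for WT and 8.13 CPM for the Cyp27a1 KO.

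A further 141 genes differed at least 2-fold on the mean while the sides overlapped, 91 higher and 50 lower. In 132 of them the DKO was the most extreme library, and in 39 the backgrounds differed in sign. Mup7, a major urinary protein of male liver, had 20285 CPM (Cyp3a KO) and 17.2 CPM (DKO), against 28047 CPM (WT) and 3650 CPM (Cyp27a1 KO). Hamp, or hepcidin, had 272 CPM in Cyp3a KO and 1.40 CPM in DKO liver, against 642 CPM in WT and 112 CPM in Cyp27a1 KO liver. Sult2a1, a female-biased sulfotransferase, had 0.0200 CPM in Cyp3a KO liver and 728 CPM in DKO liver, against 2.55 CPM for WT and 0.442 CPM for the Cyp27a1 KO. For these genes the mean difference describes neither background. Correspondingly, the median of 15 male-biased genes was 0.10 for Cyp3a KO minus WT and -1.98 for DKO minus Cyp27a1 KO, and that of 21 Mup genes was -0.19 and -4.22, with 1 gene called lower in each list. Without the Cyp3a KO library 14 male-biased and 20 Mup genes were called lower, and without the Cyp27a1 KO 5 and 13. Without WT the numbers were 2 and 1. Without the DKO none was called lower, and 2 male-biased and 3 Mup genes were called higher.

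Of 21 measured interferon-induced genes 15 lay higher without overlap, 6 overlapped, and 4 were called higher, Ifit1, Igtp, Isg15 and Ifi47, with a median of 0.82 (log2). The shares over all measured genes were 17.5% higher without overlap and 1.21% called higher. Ifit1 had 4.83 CPM (Cyp3a KO) and 7.94 CPM (DKO), against 1.82 CPM (WT) and 2.79 CPM (Cyp27a1 KO), a low level for all libraries. With a pseudocount of 2 none of the 4 was called. Ifit1 was not called without the DKO library, nor Igtp, Isg15 and Ifi47 without the WT library. The list had 2 called without WT, 4 without the DKO, 10 without the Cyp3a KO and 12 without the Cyp27a1 KO. Of the 10 guanylate-binding proteins, GTPases induced by interferon gamma, 7 lay higher without overlap and Gbp10 was called, with a list median of 0.79; 5 were called without the Cyp27a1 KO or without the Cyp3a KO, 3 without the DKO and 1 without WT. Gbp10 had 17.2 CPM in Cyp3a KO and 10.2 CPM in DKO liver, against 0.965 CPM in WT and 4.38 CPM in Cyp27a1 KO liver. Among 10 immediate early genes Atf3 and Junb were called higher, Junb neither without the WT nor without the Cyp3a KO library. Without the Cyp27a1 KO 5 of the list were called higher and without the DKO 4. The list median was 1.16 for Cyp3a KO minus WT and 0.13 for DKO minus Cyp27a1 KO. Atf3, a stress-induced factor, had 5.93 CPM in Cyp3a KO liver and 8.12 CPM in DKO liver, against 1.93 CPM for WT and 1.97 CPM for the Cyp27a1 KO.

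In the remaining lists few genes were called. Over all measured genes 1.21% were called higher and 1.02% lower, and 17.5% lay higher and 18.6% lower without overlap. The acute phase list, with a median of -0.40 (log2), had 2 of 18 called lower, Saa1 and Orm2. The growth hormone and STAT5 list (median -0.30) had 2 of 9 called lower, the cytokine-signal inhibitor Cish and the liver factor Onecut1, and the glucuronosyltransferases (median -0.26) had 2 of 15 called lower, Ugt1a6a and Ugt2b38. The cell cycle list (median 0.86) had 2 of 21 called higher, cyclin D1 (Ccnd1) and the helicase subunit Mcm6, and its median was -0.07 for Cyp3a KO minus WT and 1.53 for DKO minus Cyp27a1 KO. The NRF2 targets (median 0.43) had 1 of 13 called higher, Osgin1, and the glucocorticoid-responsive genes (median -0.35) 1 of 11 lower, the metallothionein Mt2. Of 13 iron genes Hamp2 was called lower, and the list median of -0.16 was positive with TPM. The ATF4 list had Trib3 and Gdf15 called higher and Ddit4 lower, and the heat shock list Hspa1b higher and Hspb1 lower, with medians of -0.01 and -0.04 that were positive with library totals and with TPM. The female-biased list, 12 genes measured, had Cyp2c40 and Cyp2c69 called higher and Cyp17a1 lower, with a median of -0.32 for Cyp3a KO minus WT and 1.996 for DKO minus Cyp27a1 KO. The Sult2a list, 5 genes measured, had Sult2a7 alone called. Of the called genes named in these lists, Osgin1, Ddit4, Cyp2c40, Cyp2c69 and Cyp17a1 were called whichever library was left out, and each of the others lost its call without at least 1 library. Without the Cyp3a KO library the number called rose to 12 higher in the cell cycle list, 7 higher among NRF2 targets, 9 higher in the female-biased list, 4 higher in the Sult2a list, and 3 higher and 6 lower among glucuronosyltransferases. Without the Cyp27a1 KO library it was 6 higher among NRF2 targets and 4 higher in the cell cycle list. No gene was called among 14 apolipoproteins (median -0.16), 16 endoplasmic reticulum chaperones (0.10), 9 xenobiotic receptors and partners (0.16), 13 pericentral genes (-0.03), 11 periportal genes (-0.27) or 28 cytosolic ribosomal proteins (-0.17), of which 13 lay lower without overlap. Leaving out 1 library gave at most 1 call in the apolipoprotein, pericentral and periportal lists and none in the other 3.

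**Figure D5:**
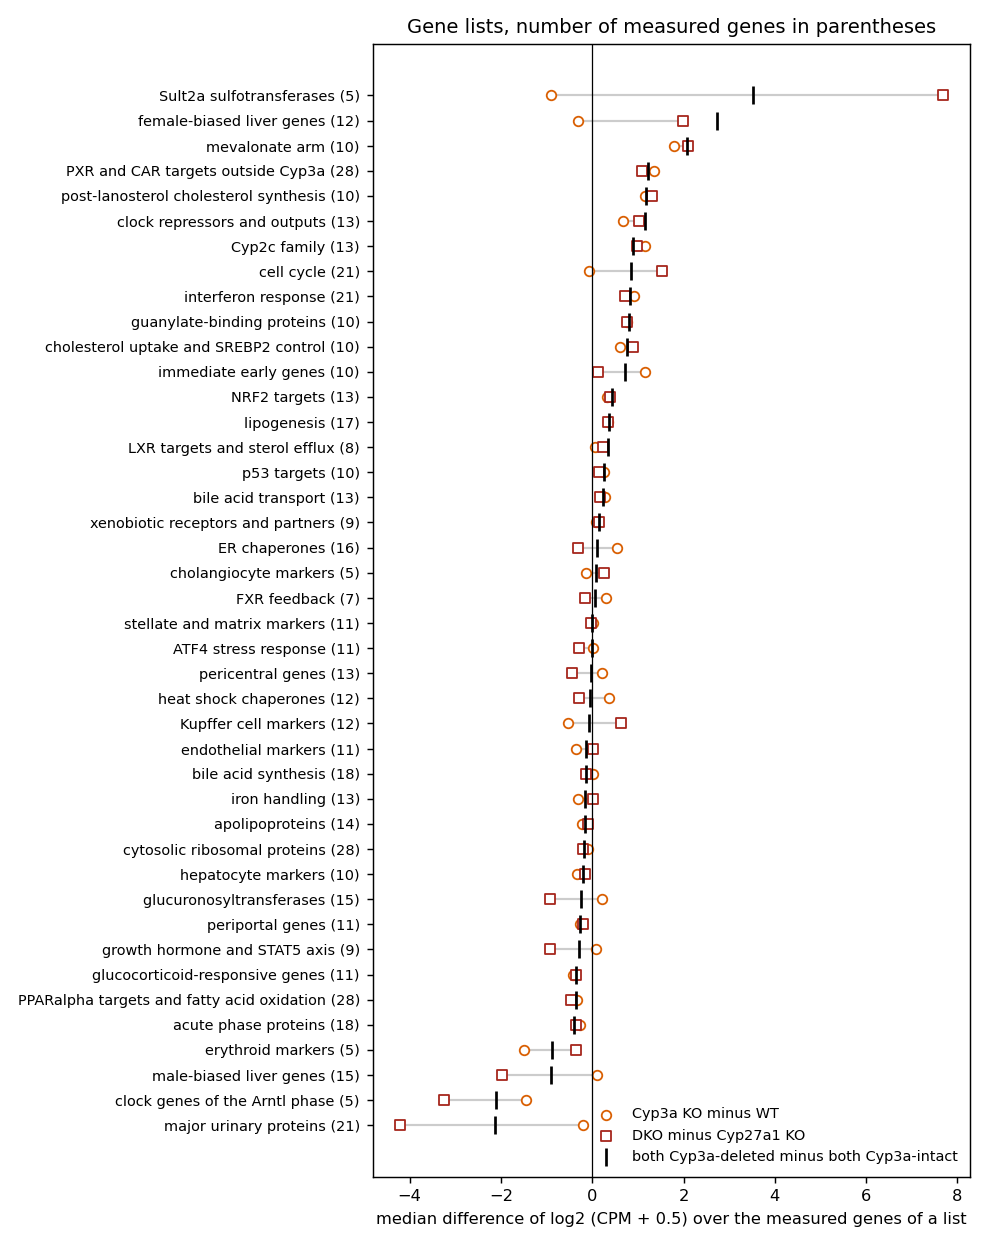
Median difference of log2 (CPM + 0.5) over the measured genes of each list, with open orange circles for Cyp3a KO minus WT, open dark red squares for DKO minus Cyp27a1 KO and black ticks for the Cyp3a-deleted minus the Cyp3a-intact side. The cholesterol, PXR and CAR and interferon lists have both symbols right of 0 and the Arntl-phase list both left of it, while the symbols are far apart for the Sult2a, male-biased and Mup lists.

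Markers of the cells that a liver holds were also compared, since in whole tissue fewer cells of a type and less RNA per cell cannot be told apart. Of 10 hepatocyte markers none was called, 3 lay lower without overlap, and the median was -0.21 (log2). The shares over all measured genes were 1.21% called higher, 1.02% called lower and 18.6% lower without overlap. Their summed level was 84852 CPM (Cyp3a KO) and 107230 CPM (DKO), against 125830 CPM (WT) and 82130 CPM (Cyp27a1 KO), so the sides overlapped. None of the 12 Kupffer cell, 11 endothelial, 11 stellate or 5 cholangiocyte markers measured was called, and their medians were -0.07, -0.13, -0.00 and 0.08. Without the Cyp3a KO library 2 Kupffer cell markers were called higher, and without the DKO 1 was called lower, as was 1 endothelial marker. Of the lymphoid and myeloid markers, 2 B cell genes and 1 neutrophil gene passed the filter, uncalled, and the 8 T and NK cell genes were all below it. Kupffer cell markers summed to 218 CPM in Cyp3a KO and 508 CPM in DKO liver, against 322 CPM in WT and 348 CPM in Cyp27a1 KO liver, and their median was -0.53 for Cyp3a KO minus WT and 0.63 for DKO minus Cyp27a1 KO. Of 5 measured erythroid markers 4 lay lower without overlap, with a median of -0.89 and a summed level of 286 CPM in Cyp3a KO liver and 280 CPM in DKO liver, against 608 CPM for WT and 448 CPM for the Cyp27a1 KO. None of the 5 was called, but 4 were called lower without the Cyp27a1 KO and 3 without the DKO. The part of blood content in the other differences was not tested.

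The main Cyp3a cluster lies at chr5:145345279-146113287 (mm10, GENCODE M21). Within 5 Mb of it, in a window chosen after the data were seen, none of 74 measured genes outside the family was called in either direction. In this window 9 lay higher and 18 lower without overlap, and the median difference was -0.02 (log2). The shares over all measured genes were 17.5% higher and 18.6% lower without overlap. By distance, the closest genes differed by -0.43 (Zscan25), -0.24 (Rnf6), -0.16 (Zfp655), -0.12 (Cdk8) and -0.41 (Zkscan5). Of these, Zfp655 and Cdk8 overlapped. Next came Zkscan14 (-0.25), Atp5j2 (-0.21), Cpsf4 (-0.12) and the overlapping Ptcd1 (0.06). The closest measured gene, Zscan25, had 4.23 CPM (Cyp3a KO) and 4.23 CPM (DKO), against 6.63 CPM (WT) and 5.201 CPM (Cyp27a1 KO). By chromosome, the share of measured genes called was highest on chromosome 19, which carries the Cyp2c genes, at 4.24%. On chromosome 5 it was 3.73%, a share that includes the called Cyp3a genes themselves. The next highest was 2.79% on chromosome 1, and chromosome 16 had 0.28%. Over all measured genes 1.21% were called higher and 1.02% lower.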

How the data were processed

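Per the labels' protocols, TruSeq v2 libraries were sequenced from the livers of 4 male mice that differ in genotype. Build mm10 and the tools kallisto 0.43.1, HISAT2 2.0.5 and Trimmomatic 0.33 appear in the submitters' processing notes, without the table that each made. The authors deposited a table of estimated counts per gene, of which 58.0% of values were whole within 1e-06, and a table of TPM. Estimated counts were rounded to whole numbers, 1 row naming no gene was left out, and CPM was computed on TMM-scaled totals (edgeR 4.0.16). Columns were tied to samples by name.

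The Cyp3a KO and DKO were set against WT and the Cyp27a1 KO on log2 (CPM + 0.5). The additive fit (edgeR, Benjamini-Hochberg adjustment) and DESeq2 1.42.0 size factors were alternatives, beside library totals, TPM, other filters and pseudocounts, a 4-fold limit, counting intervals and leaving out each library. Scripts were tested on simulated data. Coordinates come from GENCODE M21.

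The members and the 46 gene lists were chosen with earlier results of these data known. The text names Cyp3a genes and Cyp27a1, the 15 largest and 15 smallest differences among called genes with a mean of at least 5 CPM (predicted symbols passed over), up to 4 called members of each list, the 4 largest and 4 smallest overlapping differences of at least 2-fold, and the 4 largest and 4 smallest called genes whose backgrounds lie within 0.25, with all bile acid synthesis genes. Other genes are named as list members or were chosen after their values were seen. A few genes that these rules select are not reported here.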

Additional observations from a re-analysis of the deposited data

Results flagged for a closer look

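The 7 cases given here differed in sign between the Cyp27a1-deleted and Cyp27a1-intact backgrounds and were at least 2-fold in size in both for a named gene, or at least 0.3 (log2) in both for the median of a list with 3 or more measured genes. They are not all the differences of opposite sign: Cyp7a1, for one, is smaller than that in the Cyp27a1-intact background. Each value is the difference of DKO minus Cyp27a1 KO less that of Cyp3a KO minus WT, on log2 (CPM + 0.5). With 1 library per genotype none of these differences was tested. Sult2a1 gave 12.2, from 9.595 in the Cyp27a1-deleted background and -2.55 in the Cyp27a1-intact one. Sult2a2 gave 11.5, from 9.43 and -2.09, and the median of the 5 measured Sult2a genes gave 8.59. Cyp39a1 gave 4.94, from 2.09 and -2.85. The female-biased liver genes gave 2.31 and the Kupffer cell markers 1.15, both by list median. The endoplasmic reticulum chaperones gave -0.87, from -0.32 and 0.55.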

How the results depend on the processing

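No paired analysis was possible because each genotype has 1 library, so there are no replicate numbers to block on; the Cyp27a1 background is a term of the additive edgeR fit. The 142 genes called higher and 120 called lower became 79 lower with the deposited TPM, 29 higher and 29 lower at a 4-fold limit, and 1 higher and 4 lower in the additive edgeR fit. Leaving out 1 library gave 107 to 453 genes called higher and 124 to 344 called lower, fewest higher without WT and most without the Cyp3a KO. With 1 library on a side the condition of no overlap is easier to meet. Of the 97 named genes that were called, 28 were not called without the DKO, 7 without the Cyp3a KO, 23 without WT and 10 without the Cyp27a1 KO. TPM recentred on the median gene, chosen after seeing the data, gave 157 higher and 124 lower.

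The median of several lists changed sign, and the cause was not tested. Heat shock chaperones turned to 0.0565 with library totals and 0.0725 with TPM, and the ATF4 list to 0.0816, 0.0420, 0.0586 without a filter, 0.135 with a mean of at least 5 CPM and 0.00754 with a pseudocount of 0.1. Cell cycle turned to -0.153 with a mean of at least 5 CPM, and iron handling to 0.0365 with TPM.
Leaving out 1 library gave medians from -0.24 to 0.20 for the ATF4 list, -0.23 to 0.27 for heat shock, -0.11 to 0.25 for FXR feedback, -0.58 to 7.37 for Sult2a, -0.0542 to 1.496 for cell cycle, -0.44 to 2.91 for female-biased genes, -0.47 to 0.12 for glucuronosyltransferases, -0.81 to 0.00896 for growth hormone and STAT5, -4.60 to 0.35 for Mup genes and -2.13 to 0.25 for male-biased genes. At these totals, counting error alone spans 25.8% below to 31.8% above a value of 50 counts, and it is relatively larger at fewer counts. The spread between mice is not part of it.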
